A study of Oryza sativa Indica Group with 23 samples.

Results

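Pokkali and IR29 are rice genotypes of the Indica group that differ in how they withstand salt, Pokkali being a tolerant landrace and IR29 a sensitive variety. Their roots were compared here without salt: 3 arrays of Pokkali control roots against 2 arrays of IR29 control roots, 5 of the 23 arrays of the study, taken by their titles. Plants of every group stood in tanks of sand watered with nutrient solution and were harvested on day 30, and the control plants received no added salt. Beside them stand Pokkali and IR29 roots (3 arrays each) from plants whose solution was salinised with sodium chloride and calcium chloride from day 22 over 3 days, to 7.4 dS per m, and control roots of the further genotypes FL478 and IR63731 (3 arrays each). FL478 is an inbred line from a cross of IR29 and Pokkali, and IR63731 is a rice breeding line. The labels call the arrays biological replicates and do not say how many plants went into each.

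A root takes up mineral ions at its surface and loads them into the xylem for the shoot. On the way, ions meet the endodermis, whose Casparian strip of lignin is held in place by CASP membrane proteins, and transporters that decide which ions pass. HKT1;5 withdraws sodium from the xylem sap, P-type ATPases of the HMA family move zinc, cadmium and copper, and calcium sensors of the CBL family act with CIPK kinases on potassium, sodium and nitrate transport.

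The 5 arrays had medians between 4.35 and 4.39 on the log2 scale of the values, and the 3' minus 5' value averaged over 4 control genes was 0.61, 0.51 and 0.57 in Pokkali and 0.63 and 0.60 in IR29. The 8 root markers spanned a wide range: the silicon channel gene NIP2-1 (Lsi1) was at 12.88, 13.37 and 12.74 in Pokkali, against 13.59 and 13.74 in IR29, whereas SCR1, of the endodermis, was at 4.57, 4.65 and 4.15 in Pokkali, against 4.66 and 4.34 in IR29 and HKT1;5 near the array medians in Pokkali. With both IR29 arrays all 8 had a negative log2 difference (median -0.57), and 1 passed, the silicon efflux gene Lsi2. Without the first IR29 array, described below, the median was -0.38, with NRT2.3 at -0.07 and SCR1 at 0.11. The summed level of the 8 markers, on the log2 scale, was 13.78, 14.11 and 13.74 in Pokkali, against 14.73 and 14.56 in IR29. Of the 4 leaf markers, rubisco activase (rca) was at 4.13, 4.12 and 4.09 in Pokkali, against 4.21 and 4.38 in IR29, below its array's median on all 5, and the rubisco small subunit gene rbcS was higher, at 6.45, 6.37 and 6.58 in Pokkali, against 6.63 and 6.71 in IR29. With both IR29 arrays, none of 4 leaf, 7 seed storage and 3 anther markers passed the test between the genotypes. Of the anther markers, C6 had a log2 difference of -0.25 with both IR29 arrays and -0.47 without the first. The other 2 had positive differences with both. Of the seed storage genes, GLB (globulin) stood high in both genotypes, at 9.16, 9.31 and 9.25 in Pokkali, against 9.24 and 9.45 in IR29. In whole roots, fewer cells of a type and less RNA per cell cannot be told apart. Nor can less RNA be told apart from a sequence difference between genotypes under the short probes of a probe set.

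The first IR29 control array stood apart from its label. Over all rice probe sets its closest array was the first IR63731 control array (Pearson r 0.991), whereas the second IR29 control array was closest to an IR29 salt array (r 0.992). Over 457 probe sets that separate IR29 salt roots from IR63731 control roots, with the IR29 salt mean at 0 and the IR63731 control mean at 1, the first IR29 control array had a median position of 0.55 and the second of 0.06. Its position was 0.68 over the 194 of these probe sets that are higher in IR63731, and 0.34 over the 263 that are lower. The Pokkali control arrays had median positions of 0.83, 0.87 and 0.77 over the 457. The axis thus separates IR29 from Pokkali as well, and a position above 0 is not particular to IR63731. The main counts are therefore given with both IR29 arrays and without the first one. Without it, 1 array stands for IR29 and is taken to vary as much as arrays of the other groups do.

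**Figure D1:**
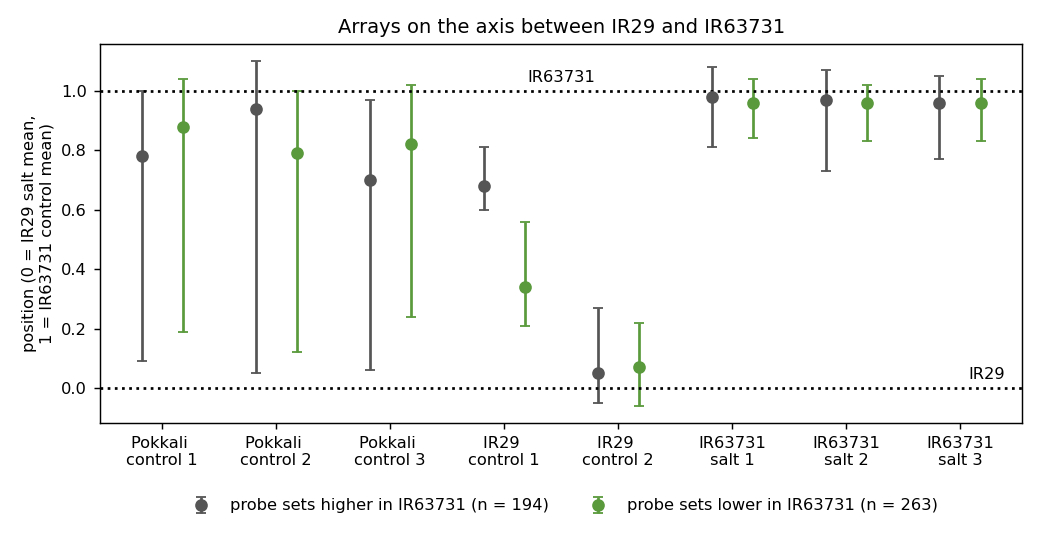
Position of each array (x axis) on the axis from the mean of IR29 salt roots (0) to the mean of IR63731 control roots (1), as the median over probe sets with the quartiles as bars. IR29 control 1 sits at 0.68 and 0.34, between the genotypes, and IR29 control 2 at 0.05 and 0.07. The Pokkali control arrays sit at 0.70 to 0.94 over probe sets higher in IR63731, and at 0.79 to 0.88 over those lower.

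Across 57194 rice probe sets, 2373 (4.15%) differed between Pokkali and IR29 control roots, at an adjusted p under 0.05 in limma with Benjamini-Hochberg adjustment. The split was even, with 1198 higher (2.09%) and 1175 lower (2.05%) in Pokkali. Differences over 2-fold made up 1214 of them (2.12% of all probe sets), 597 higher (1.04%) and 617 lower (1.08%). Differences over 16-fold were found at 25 probe sets higher (0.0437%) and 46 lower (0.0804%) in Pokkali. Counted by gene, with the brightest probe set standing for each of 17905 genes, 670 genes were higher (3.74%) and 561 lower (3.13%) in Pokkali. Among the 2451 genes that carry a name besides a locus identifier, 81 were higher (3.3%) and 80 lower (3.26%).

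Without the first IR29 array, 1841 probe sets passed (3.22%), 918 higher and 923 lower (1.61% each). Of the 2373, 1376 passed again in the same direction (58.0%, or 74.7% of the 1841), and none changed sign. The 2 IR29 arrays weighed differently: without the second, the one that sits at IR29, 1064 probe sets passed. Leaving out the third Pokkali array gave 1490. The 3 Pokkali arrays did not overlap the 2 IR29 arrays at 16989 probe sets (29.7%), and 1374 (2.4%) had no overlap and passed both ways, 676 higher (1.18%) and 698 lower (1.22%) in Pokkali. The size of the differences moved with the array as well. Where IR63731 lies nearer Pokkali than IR29, leaving out the first IR29 array took the median of the probe sets over 2-fold higher in Pokkali to 1.76, against 1.53 with it, and of those over 2-fold lower to -2.07, against -1.68 with it. Where IR63731 lies nearer IR29, these medians were 1.58 without and 1.56 with the array, and -1.58 in both.

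With both IR29 arrays, the largest difference among named genes was in CASPL1D1, a Casparian strip membrane protein-like gene. It was at 6.66, 6.64 and 6.62 in Pokkali, against 11.94 and 12.48 in IR29. All Pokkali arrays were thus almost equal and far below both IR29 arrays, a 47.5-fold lower level (log2 -5.57 ± 0.52, SE; limma adjusted p = 9.42e-07). The protein phosphatase gene PP2C12 was at 7.79, 8.19 and 8.20 in Pokkali, against 11.97 and 12.32 in IR29, 16.9-fold lower (log2 -4.08 ± 0.29; limma adjusted p = 1.83e-08). HMA2, which in rice carries zinc and cadmium toward the shoot, was at 4.34, 5.21 and 4.27 in Pokkali, against 8.83 and 8.23 in IR29. It was lower in Pokkali (log2 -3.93 ± 0.28; limma adjusted p = 2.47e-08), and the groups were far apart with either IR29 array. Pokkali stood at the array medians on all but the second array, so no fold is given for HMA2. IR63731 controls averaged 7.11 for CASPL1D1, 8.06 for PP2C12 and 8.19 for HMA2, near Pokkali for the first pair and near IR29 for HMA2.

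Other named genes lower in Pokkali had varied functions. The isochorismate synthase gene ICS, which acts in salicylic acid and vitamin K synthesis, was at 3.16, 3.45 and 3.26 in Pokkali, against 4.80 and 5.49 in IR29 (log2 -1.86 ± 0.23; limma adjusted p = 3.08e-05). The autophagy gene APG8D, of the ATG8 family, was at 5.81, 5.92 and 6.07 in Pokkali, against 8.21 and 7.86 in IR29 (log2 -2.10 ± 0.22; limma adjusted p = 5.94e-06). These arrays did not overlap between genotypes for either gene. CHI, chalcone isomerase of flavonoid synthesis, was at 9.90, 9.99 and 9.73 in Pokkali, against 11.03 and 11.66 in IR29 (log2 -1.48 ± 0.17; limma adjusted p = 1.29e-05), a gene read at a high level in both genotypes. CBP1 (-2.95), CCS1 (-2.31), the actin depolymerising factor ADF-9 (-1.94), the argonaute AGO1D (-1.59), the zinc transporter ZIP1 (-1.48), the lipoxygenase LOX1.1 (-1.45), the beta-glucosidase BGLU33 (-1.42) and the MADS-box gene MADS56 (-1.36) completed the 14 largest log2 differences downward. LOX1.1 lay close to the threshold with all arrays (limma adjusted p = 0.0479), and its IR29 arrays, at 7.70 and 9.19, were far apart.

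On the other side, ILL3, an IAA-amino acid hydrolase-like gene whose relatives release the hormone auxin from its conjugates, was at 8.15, 8.43 and 8.19 in Pokkali, against 4.65 and 4.38 in IR29. That is higher in Pokkali (log2 3.74 ± 0.31; limma adjusted p = 2.05e-07), with little spread in either genotype and IR29 about at the array medians. ILL6, a related gene, was at 8.61, 7.40 and 8.69 in Pokkali, against 7.14 and 6.03 in IR29, and one Pokkali array came near the first IR29 array (log2 1.65 ± 0.34; limma adjusted p = 0.00628). The small heat shock protein gene HSP18.1 was at 8.66, 11.17 and 10.47 in Pokkali, against 6.70 and 6.13 in IR29 (log2 3.68 ± 0.53; limma adjusted p = 0.000227). Its Pokkali arrays varied more than most, yet all stood above IR29, and its second probe set gave 4.59 (limma adjusted p = 0.000785).

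HIRL2, of the hypersensitive-induced reaction protein family, was at 8.53, 8.75 and 8.81 in Pokkali, against 6.43 and 4.47 in IR29. The first IR29 array lay between Pokkali and the second IR29 array, and IR63731 averaged 7.11; the log2 difference was 3.25 ± 0.41, and 4.23 without that array (limma adjusted p = 4.91e-05 and 9.35e-07). SPO11-4, related to the topoisomerase that opens meiotic recombination, was at 8.98, 8.83 and 9.19 in Pokkali, against 6.08 and 6.09 in IR29, with the IR29 arrays almost equal (log2 2.92 ± 0.26; limma adjusted p = 5.41e-07). PIK6-NP, an NB-LRR gene of the Pik blast resistance group, was at 6.37, 6.50 and 6.33 in Pokkali, against 4.70 and 3.32 in IR29 and only just passed (log2 2.39 ± 0.66; limma adjusted p = 0.0461); a second probe set of it did not pass (1.02, limma adjusted p = 0.105). The kinase gene CIPK6 (2.17), the calmodulin-like CML32 (2.13), the protein disulphide isomerase-like PDIL1-3 (1.96), the allantoinase ALN (1.64), the starch synthase SS1 (1.58), the chitinase Cht11 (1.55), the sugar transporter SWEET6a (1.49) and the Casparian strip-like CASPL1E1 (1.48) were the rest of the 14 largest log2 differences upward.

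**Figure D2:**
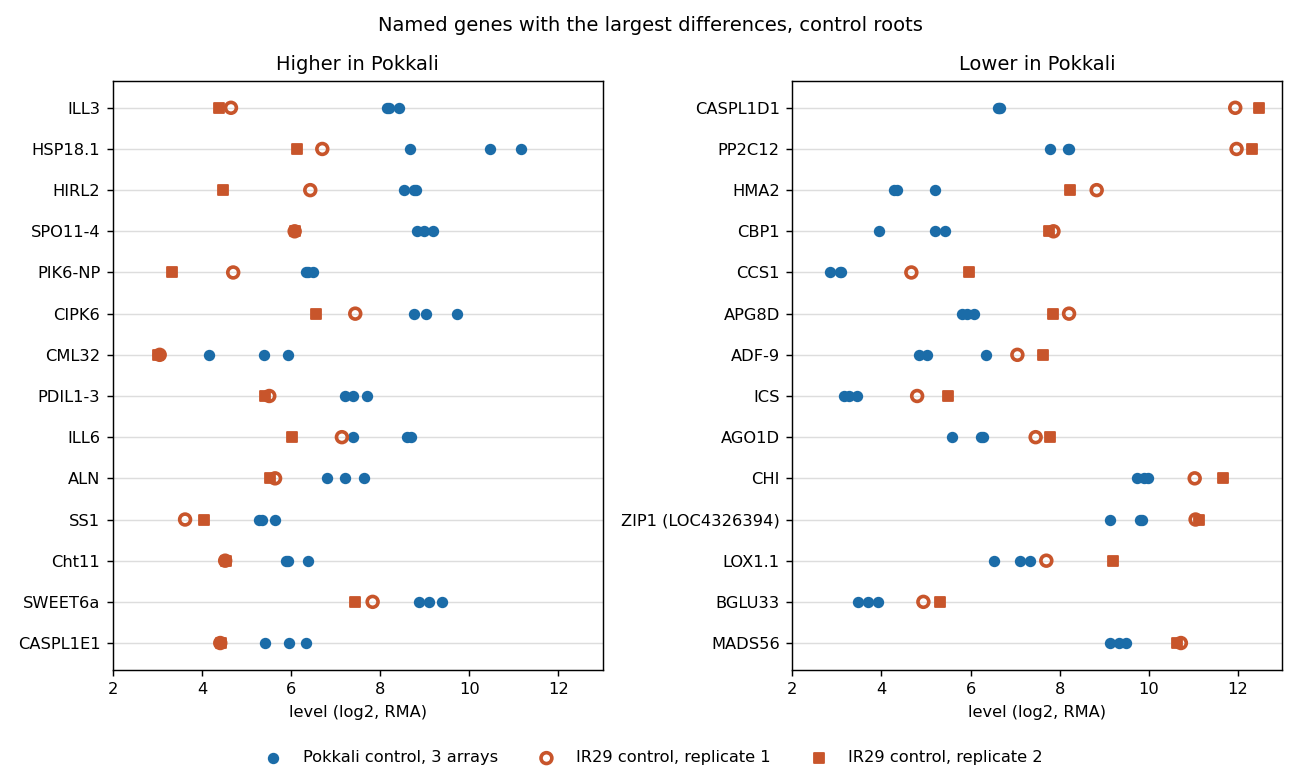
Level on each control array (x axis, log2 of RMA values) of the 14 named genes with the largest differences upward (left) and downward (right) in Pokkali among those that passed with and without the first IR29 array and did not overlap. Blue points are the 3 Pokkali arrays, the open circle is IR29 replicate 1 and the square IR29 replicate 2. The open circle lies on the Pokkali side of the square for 10 of the 14 genes on the left and 10 of the 14 on the right, by over 0.5 for 5 (HSP18.1, HIRL2, PIK6-NP, CIPK6 and ILL6) and 6 (CASPL1D1, CCS1, ADF-9, ICS, CHI and LOX1.1).

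Larger differences still were found at probe sets whose gene has no name. LOC107277424 on chromosome 11 was at 10.64, 11.93 and 10.52 in Pokkali, against 3.64 and 3.58 in IR29 (log2 7.42 ± 0.60; limma adjusted p = 1.41e-07). LOC9272389 on chromosome 4 was at 9.41, 9.94 and 8.73 in Pokkali, against 2.86 and 3.57 in IR29 (log2 6.14 ± 0.75), and another of its probe sets gave 6.02. Downward, LOC4336164 on chromosome 4 was at 3.94, 3.43 and 3.39 in Pokkali, against 10.27 and 10.08 in IR29 (log2 -6.59 ± 0.26; limma adjusted p = 4.03e-12), though a second, dimmer probe set of the gene gave -0.18 (limma adjusted p = 0.676). LOC4344823 on chromosome 8 was at 3.22, 3.0 and 3.29 in Pokkali, against 8.79 and 9.93 in IR29 (log2 -6.19 ± 0.33). The probe set Os.37931.1.S1_at, without a listed gene, was at 3.85, 3.66 and 3.68 in Pokkali, against 9.89 and 9.91 in IR29, so tightly grouped that its log2 difference of -6.17 ± 0.14 had the smallest adjusted p among the genes and probe sets named here (2.01e-15, limma). OsAffx.30449.1.S1_at was at 6.94, 3.25 and 3.62 in Pokkali, against 11.50 and 11.67 in IR29 (log2 -6.98 ± 0.70). Its first Pokkali array stood far above the others. OsAffx.17471.1.S1_at (-6.54) was lower in Pokkali too, and OsAffx.19068.1.S1_x_at (6.05) and OsAffx.30939.2.S1_s_at (6.05) were higher. Where the low genotype lies below the array median, as for LOC107277424 in IR29, the log2 difference is one of RMA values and gives no exact ratio of RNA.

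Some probe sets were high in 1 genotype and near the bottom of the range in the other. At 10 probe sets every Pokkali array was above 8 while both IR29 arrays were below their own array's median, and at 15 probe sets the reverse held. All 25 passed the test, which a choice of such wide gaps on the same arrays all but ensures. IR63731 controls were low at all 10 of the first kind and high at 11 of the 15. The choice of both kinds used the first IR29 array, which lies between IR29 and IR63731. These IR63731 counts thus follow in part from that choice. With the second IR29 array alone, there were 21 probe sets of each kind. Where a gene has several probe sets, they could be set against each other: of 579 genes over 2-fold apart (3.23% of genes), 116 have other probe sets, and in 94 of these all had the same sign. In 51 another probe set also passed in the same direction, in 1 another passed in the opposite direction, and in 64 no other passed.

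Transporters of zinc, copper and manganese that passed were all lower in Pokkali. Of 20 measured, 4 were lower in Pokkali and 0 higher, where all genes had 3.13% lower and 3.74% higher, and the median log2 difference was -0.24 beside 0.004 over all genes. Beside HMA2, described above, ZIP1 was at 9.81, 9.14 and 9.84 in Pokkali, against 11.05 and 11.12 in IR29, without overlap (limma adjusted p = 0.00436). HMA4, which in rice stores copper in root vacuoles, was at 9.69, 9.77 and 9.46 in Pokkali, against 10.56 and 10.35 in IR29 (log2 -0.81 ± 0.14; limma adjusted p = 0.00151). HMA5, which in rice loads copper into the xylem, was at 10.22, 10.49 and 9.97 in Pokkali, against 11.04 and 10.78 in IR29 (log2 -0.68 ± 0.16; limma adjusted p = 0.0153), and passed no longer without the first IR29 array (-0.56, limma adjusted p = 0.166). Without that array the other 3 were lower and none was higher, where all genes then had 2.15% lower and 2.79% higher. In salt-treated roots HMA2, HMA4, ZIP1 and MTP1 were lower in Pokkali and none was higher, beside 5.23% lower and 5.3% higher among all genes, and HMA5 did not pass (-0.34, limma adjusted p = 0.222). Under the alternatives 2 to 7 members were lower. The root markers, all with negative differences with both IR29 arrays, ran the same way. Of these markers, Lsi2, NIP2-1, IRT1, NRT2.3 and HKT1;5 are also members of the following transporter lists. For those lists the shared direction is thus partly that of the same genes. The part of the markers in the counts of these and the following transporters was not tested.

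Other mineral transporters gave fewer calls per list, beside 3.13% lower and 3.74% higher among all genes. The silicon, aluminium and magnesium list had 13.3% lower, the iron list 3.1% lower and the nitrogen list 4.8% higher. Of 15 silicon, aluminium and magnesium genes, 2 were lower in Pokkali and none higher: Lsi2, which exports silicon toward the xylem, was at 11.26, 11.64 and 11.26 in Pokkali, against 12.61 and 12.29 in IR29 (limma adjusted p = 0.0089), and Nrat1, an aluminium importer, was at 9.62, 9.78 and 9.74 in Pokkali, against 10.58 and 10.66 in IR29 (limma adjusted p = 0.0102). Neither passed without the first IR29 array (limma adjusted p = 0.113 and 0.0532). Among 32 iron genes 1 passed with all arrays, NRAMP5, a manganese and cadmium importer, at 10.14, 9.66 and 10.01 in Pokkali, against 11.96 and 11.26 in IR29 (log2 -1.68 ± 0.35; limma adjusted p = 0.00767), and it too failed without that array (0.126). Without that array IRT2, an iron transporter gene, was higher in Pokkali by 6.53 (log2), beside 3.41 with both IR29 arrays (limma adjusted p = 0.0574). In salt-treated roots the IRT2 difference was 6.85 (limma adjusted p = 3.23e-05). Under the alternatives 0 to 7 iron genes were lower. With both IR29 arrays, none of 25 aquaporins and none of 20 phosphate genes passed. Pht1;4, of the phosphate list, was then higher in Pokkali by 1.06 (log2), and by 2.13 without the first IR29 array. Of 21 nitrogen genes 1 passed, GLN2, a glutamine synthetase, at 11.15, 11.37 and 11.12 in Pokkali, against 10.38 and 10.19 in IR29 (limma adjusted p = 0.00729). A second probe set of GLN2 gave 0.37 (limma adjusted p = 0.785).

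Sodium and potassium transporters, 28 in all, held 1 call. It was TPK2, a potassium channel of the TPK family, at 8.30, 8.26 and 8.20 in Pokkali, against 7.92 and 7.76 in IR29 (log2 0.41 ± 0.10; limma adjusted p = 0.0252). HKT1;5 was at 4.29, 3.91 and 4.45 in Pokkali, against 7.27 and 5.33 in IR29. All Pokkali arrays were lower, but the IR29 arrays differed by more from each other than the nearer one did from Pokkali, and the log2 difference of -2.09 ± 0.76 did not pass (limma adjusted p = 0.16; 0.639 without the first IR29 array). IR63731 controls averaged 6.69 for this gene, between the IR29 arrays. The potassium channel gene AKT1 was at 11.98, 11.66 and 11.52 in Pokkali, against 12.65 and 11.55 in IR29, with overlap, and the potassium transporter gene HAK1 at 11.82, 11.41 and 11.99 in Pokkali, against 12.48 and 11.73 in IR29 (limma adjusted p = 0.586 and 0.58). Around HKT1;5 on chromosome 1, 1 of the 40 nearest measured genes passed (2.5%, against 6.88% of all genes), LOC4327285, higher in Pokkali by 1.59 and not passing without the first IR29 array.

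Of 31 CIPK and CBL genes of calcium signalling, 4 were higher in Pokkali and 1 lower, with a list median of 0.13. That is 12.9% and 3.2%, beside 3.74% and 3.13% of all genes. CIPK6 was at 9.03, 8.75 and 9.73 in Pokkali, against 7.44 and 6.55 in IR29 and did not overlap (limma adjusted p = 0.000367). CIPK16 was at 7.95, 8.52 and 8.53 in Pokkali, against 6.88 and 6.91 in IR29 (log2 1.44 ± 0.32; limma adjusted p = 0.0128), and CIPK18 at 8.47, 8.37 and 8.89 in Pokkali, against 7.54 and 7.40 in IR29 (log2 1.11 ± 0.24; limma adjusted p = 0.0106). The calcium sensor gene CBL10, whose product works with a CIPK kinase in sodium handling in Arabidopsis, was at 8.19, 8.22 and 8.16 in Pokkali, against 7.48 and 7.26 in IR29, with tight groups (log2 0.82 ± 0.13; limma adjusted p = 0.000544). CIPK8 went the other way, at 7.08, 6.97 and 6.78 in Pokkali, against 7.68 and 7.74 in IR29 (log2 -0.77 ± 0.14; limma adjusted p = 0.00281). Without the first IR29 array CIPK16 missed the threshold (limma adjusted p = 0.0801), the other 4 passed, and CIPK26 was higher as well (log2 0.72; limma adjusted p = 0.0234).

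Of 55 PP2C phosphatase genes, relatives of the negative regulators of abscisic acid signalling, 2 were higher and 2 lower. That is 3.6% each way, near the 3.74% higher and 3.13% lower of all genes. Beside PP2C12, PP2C31 was lower at 5.60, 5.49 and 5.43 in Pokkali, against 6.49 and 6.26 in IR29 (limma adjusted p = 0.00271), PP2C02 higher at 8.11, 7.65 and 8.43 in Pokkali, against 7.03 and 6.67 in IR29 (limma adjusted p = 0.00313) and PP2C72 higher by 0.59 ± 0.12. SAPK6, a kinase of the SnRK2 family to which abscisic acid signalling leads, was the 1 call among 18 abscisic acid genes, at 8.13, 8.43 and 8.38 in Pokkali, against 7.84 and 7.08 in IR29 (log2 0.85 ± 0.18; limma adjusted p = 0.00862), and the second IR29 array was well below the first. Of 46 CPK and calmodulin-like genes, CML32 was higher, described above, and CPK6 lower (-0.72 ± 0.18). A second probe set of CPK6 gave 0.03 (limma adjusted p = 0.947). Without the first IR29 array PP2C31 (log2 -0.75) and CPK6 (-0.79) missed the threshold. The 1 abscisic acid call was 5.6% of its list, and the CPK and calmodulin-like calls were 2.2% each way.

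Of 34 genes of the cellulose synthase family and the brittle culm group, 6 were higher in Pokkali (17.6%) and 2 lower (5.9%), beside 3.74% and 3.13% of all genes. The cellulose synthase genes CESA4, CESA7 and CESA9, which build secondary walls, were higher by similar amounts. CESA4 was at 10.87, 10.73 and 11.09 in Pokkali, against 10.11 and 10.44 in IR29 (log2 0.62 ± 0.14; limma adjusted p = 0.0145), CESA7 at 11.01, 10.69 and 11.15 in Pokkali, against 10.38 and 10.31 in IR29 (log2 0.61 ± 0.14; limma adjusted p = 0.0134), and CESA9 at 8.13, 7.77 and 8.19 in Pokkali, against 7.45 and 7.35 in IR29 (log2 0.63 ± 0.16; limma adjusted p = 0.0265). In each the groups did not overlap, and a second probe set of CESA4 did not pass (0.46, limma adjusted p = 0.121). CESA5 (0.46 ± 0.13) and CESA6 (0.37 ± 0.10), of the primary wall kind, were higher by less. The sixth was BC1L9, a COBRA-like gene, at 10.62, 9.94 and 10.64 in Pokkali, against 7.62 and 8.70 in IR29 (log2 2.24 ± 0.50; limma adjusted p = 0.0129). CSLD1, a cellulose synthase-like gene needed for rice root hairs, was lower at 4.95, 5.80 and 4.94 in Pokkali, against 6.39 and 6.59 in IR29 (limma adjusted p = 0.0152), and CSLF7 lower (log2 -0.68 ± 0.14). Without the first IR29 array none of these 6 passed; CSLF6 was higher (log2 0.97) and CSLF7 again lower, and the log2 differences were then 0.46, 0.64 and 0.68 for CESA4, CESA7 and CESA9 (limma adjusted p = 0.198, 0.0586 and 0.0878). The count higher was 0 to 9 under the alternatives. In salt-treated roots 6 were higher and 2 lower, beside 5.3% and 5.23% of all genes, but of the genes called in control roots only CESA9, CESA5 and the lower CSLD1 were among them; CESA4, CESA6, CESA7, BC1L9 and CSLF7 did not pass there (limma adjusted p from 0.0982 to 0.978).

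Phenylpropanoid, lignin and Casparian strip genes held 4 higher (7.8%) and 2 lower (3.9%) of 51, beside 3.74% and 3.13% of all genes. The lower pair, CASPL1D1 and CHI, and the higher CASPL1E1 are given above. CASPL1E1 was at 5.95, 5.42 and 6.33 in Pokkali, against 4.41 and 4.43 in IR29, without overlap (limma adjusted p = 0.000868). CHS, chalcone synthase, which stands one step before chalcone isomerase in flavonoid synthesis, was at 7.73, 8.98 and 9.23 in Pokkali, against 5.83 and 6.43 in IR29: higher in Pokkali (log2 2.52 ± 0.59; limma adjusted p = 0.0171) while CHI was lower. The call for CHS was lost without the first IR29 array (limma adjusted p = 0.144), and its other 4 probe sets did not pass, with differences from -0.13 to 0.30. CASPL4B4 (0.55 ± 0.15) and CASPL5B2 (0.52 ± 0.10) were higher by less. Without the first IR29 array CASPL1E1 was the 1 higher, and CASPL2D1 and 4CLL1 joined CASPL1D1 and CHI as lower, where all genes had 2.79% higher and 2.15% lower. All 6 genes called in control roots passed again in salt-treated roots. CASP1, the rice gene of the Casparian strip protein itself, was at 9.80, 10.11 and 9.81 in Pokkali, against 10.10 and 10.12 in IR29, with a difference that did not pass (limma adjusted p = 0.63).

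Beta-glucosidases, which release sugars from stored glycosides and hormone conjugates, held 1 higher and 4 lower of 27 (18.5% either way, beside 6.88% of all genes), with a median of -0.18. BGLU33 was at 3.70, 3.92 and 3.48 in Pokkali, against 4.94 and 5.32 in IR29 (limma adjusted p = 0.000118) and BGLU12 at 9.82, 10.29 and 9.98 in Pokkali, against 11.26 and 11.50 in IR29 (log2 -1.35 ± 0.24; limma adjusted p = 0.00157). In both the genotypes were clearly separate, and a second probe set of BGLU12 gave -1.68 (limma adjusted p = 0.00206). BGLU34 (log2 -1.21 ± 0.32) and BGLU3 (log2 -0.57 ± 0.14) were lower, and BGLU13 higher by 0.58 ± 0.16. Other probe sets of BGLU3 gave 0.05 and -0.88 (limma adjusted p = 0.9 and 0.00871), and one of BGLU13 gave 0.15 (limma adjusted p = 0.842). BGLU33, BGLU12 and BGLU3 were still lower without the first IR29 array, and none was then higher. None of 30 expansin and xyloglucan genes passed.

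Hormone genes are set beside the shares of all genes, 3.74% higher and 3.13% lower. Of 58 auxin genes 2 were higher (3.4%) and 3 lower (5.2%), and without the first IR29 array only IAA25 still passed. The largest was IAA25, a repressor of the Aux/IAA family, at 5.36, 5.58 and 5.73 in Pokkali, against 6.34 and 7.01 in IR29 (log2 -1.12 ± 0.19; limma adjusted p = 0.00148). The auxin-conjugating GH3.6 (-0.52) and the IAA20 gene LOC4327919 (-0.47) were lower, and the response factor ARF22 (0.61) and IAA12 (0.57) higher. For this IAA20 gene, other probe sets gave -0.39 and -0.37 (limma adjusted p = 0.43 and 0.347). Of 31 cytokinin genes 2 were higher and 2 lower (6.5% each). The response regulator ORR4 was at 9.78, 9.93 and 9.84 in Pokkali, against 10.58 and 10.74 in IR29 (log2 -0.81 ± 0.11; limma adjusted p = 7.21e-05), and CKX4, a cytokinin oxidase, at 5.76, 6.18 and 6.16 in Pokkali, against 5.17 and 4.34 in IR29 (log2 1.28 ± 0.31; limma adjusted p = 0.0234), so that neither overlapped between genotypes. LOGL5, a cytokinin-activating enzyme gene, was lower (-1.07) and LOGL7 higher (0.83), though a second probe set of LOGL7 gave -0.18 (limma adjusted p = 0.564). Without the first IR29 array the call for LOGL5 was lost (log2 -0.77). The differences were then -0.89 for ORR4, 1.7 for CKX4 and 1.22 for LOGL7.

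Among 51 jasmonate and phytoalexin genes the lipoxygenases LOX1.1 and LOX3 were lower (3.9%) and the reductase gene OPR4 higher (2.0%). All genes had 3.13% lower and 3.74% higher. LOX3 and OPR4 missed the threshold without the first IR29 array (log2 -1.39 and 0.63). LOX3 was at 7.81, 8.11 and 7.09 in Pokkali, against 8.70 and 9.06 in IR29 (limma adjusted p = 0.0314) and OPR4 at 6.05, 5.93 and 6.22 in Pokkali, against 5.02 and 5.44 in IR29 (limma adjusted p = 0.00563). GA20OX2, the gibberellin 20-oxidase whose loss gives semidwarf rice (sd1), was at 5.12, 5.15 and 4.97 in Pokkali, against 4.42 and 4.23 in IR29, higher in Pokkali by 0.76 ± 0.18 (limma adjusted p = 0.0216). Its call was lost without the first IR29 array, where the difference was 0.85 (limma adjusted p = 0.0593). With both IR29 arrays, none of 12 ethylene genes passed. EIL1 (LOC4332697) was then higher in Pokkali by 1.14 (log2), and by 2.34 without the first IR29 array. CYP714C1 and CYP714C2, cytochrome P450 genes, were the 2 calls among 29 (6.9%), both higher. CYP714C1 was at 7.54, 7.99 and 7.83 in Pokkali, against 6.62 and 6.71 in IR29 (limma adjusted p = 0.000849). CYP714C2 was higher by 0.91 ± 0.20, a call lost without the first IR29 array (log2 0.58).

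Of 13 genes for proline, trehalose and other osmolytes 2 passed (15.4%, beside 6.88% of all genes): the trehalose-phosphate phosphatases TPP4 and TPP10 were lower, at 8.65, 7.81 and 7.51 in Pokkali, against 10.13 and 9.44 in IR29 for TPP4 (limma adjusted p = 0.0103) and with a log2 difference of -0.72 ± 0.19 for TPP10, and neither passed without the first IR29 array. The proline synthesis gene P5CS1 was at 10.81, 10.98 and 10.53 in Pokkali, against 10.75 and 10.92 in IR29, the groups overlapping (limma adjusted p = 0.923), and P5CS2 at 5.79, 6.11 and 5.65 in Pokkali, against 5.28 and 6.06 in IR29 (limma adjusted p = 0.831). With both IR29 arrays, none of 8 dehydrin and LEA genes passed. Dhn1 was then higher in Pokkali by 0.95 (log2), and by 1.49 without the first IR29 array. The LEA3 gene, listed as LEA19, was low in both genotypes, at 4.93, 5.47 and 5.20 in Pokkali, against 4.76 and 5.02 in IR29. SalT, a lectin gene first known from salt-treated rice, was at 10.67, 10.95 and 11.33 in Pokkali, against 10.12 and 10.12 in IR29. Its arrays did not overlap, higher in Pokkali by 0.87 ± 0.26, but the difference did not pass (limma adjusted p = 0.073). BURP10 was at 6.87, 6.31 and 7.0 in Pokkali, against 6.44 and 6.75 in IR29 and overlapped (limma adjusted p = 0.951).

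Of 39 small heat shock protein and heat shock factor genes, HSP18.1 was higher and HSP18.8 lower, at 10.63, 10.90 and 10.36 in Pokkali, against 11.57 and 11.60 in IR29 for HSP18.8 (limma adjusted p = 0.0036). Among 52 antioxidant genes 1 was higher, GRXS3 (0.52), and 1 lower, the thioredoxin Trxh1 (-0.49). Neither call was kept without the first IR29 array (log2 0.51 and -0.4). Another probe set of Trxh1 gave 0.07 (limma adjusted p = 0.964). Shares each way were 2.6% for the heat shock list and 1.9% for antioxidants, beside 3.74% higher and 3.13% lower of all genes. Sugar genes held 2 higher (4.4%) and 1 lower (2.2%) of 45: SWEET6a was at 9.10, 8.86 and 9.39 in Pokkali, against 7.83 and 7.43 in IR29 (limma adjusted p = 0.00413), SWEET2a higher by 0.39 ± 0.10, and the sucrose synthase SUS5 lower (log2 -0.83 ± 0.18). The call for SWEET2a was lost without the first IR29 array (log2 0.42).

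Transcription factors gave scattered calls, set here beside the 6.88% of all genes that passed either way. The MADS-box calls were 9.7% of their list. The C3H zinc finger calls, 2 of 50, were a smaller share than among all genes. The NAC calls, 2 of 8, were a larger share, but of a short list. Of 31 MADS-box genes, MADS56, a regulator of flowering time in rice, was lower at 9.32, 9.49 and 9.14 in Pokkali, against 10.72 and 10.63 in IR29 (limma adjusted p = 0.00022), and MADS57 and MADS2 were higher by 1.69 ± 0.38 and 0.90 ± 0.15. NAC068 (1.58 ± 0.44) and NAC048 (1.08 ± 0.27) were higher among 8 NAC genes, and neither call was kept without the first IR29 array (log2 1.1 and 1.07). Other probe sets of NAC048 gave -0.18 and -0.0 (limma adjusted p = 0.59 and 0.998). C3H35 (-1.15 ± 0.23) and C3H3 (-0.57 ± 0.14) were lower among 50 C3H zinc finger genes. Neither call was kept without the first IR29 array (log2 -1.06 and -0.58). Other probe sets of C3H35 gave -0.6 and -0.59 (limma adjusted p = 0.186 and 0.207). With both IR29 arrays, none of 25 homeobox, 12 AP2/ERF, 6 WRKY, 13 ABC transporter and 6 glutathione S-transferase genes passed. WRKY76 was then higher in Pokkali by 1.62 (log2), and by 2.58 without the first IR29 array.

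**Figure D3:**
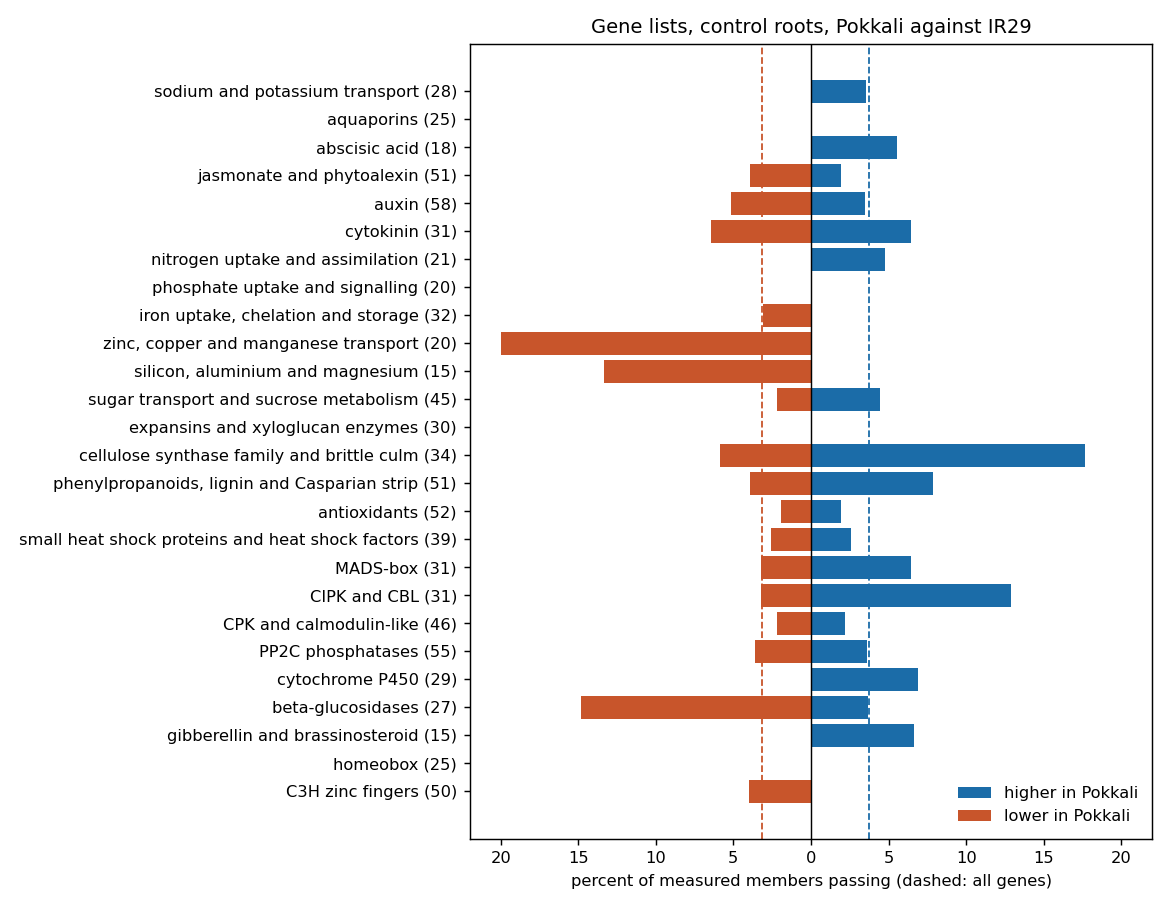
Percent of the measured members of each gene list that were higher (blue, to the right) or lower (red, to the left) in Pokkali control roots at an adjusted p under 0.05, with the number of measured members in brackets and lists of at least 15 genes drawn. The dashed lines are the shares over all genes, 3.74% higher and 3.13% lower; zinc, copper and manganese transport and beta-glucosidases reach furthest to the left and the cellulose synthase family furthest to the right.

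Several clock genes varied with the replicate number in both genotypes. PCL1, a component of the evening complex, was at 4.94, 9.02 and 5.29 in Pokkali, against 4.26 and 9.04 in IR29, high on the second array of both genotypes. CCA1, the morning factor, was at 11.57, 9.99 and 11.14 in Pokkali, against 12.09 and 10.21 in IR29, lowest on the second array of both. GI, at 10.39, 11.91 and 9.40 in Pokkali, against 10.90 and 12.26 in IR29, and PRR1, at 7.67, 9.03 and 7.48 in Pokkali, against 7.67 and 8.86 in IR29, were highest on the second arrays too. None of the 7 clock genes passed between genotypes (limma adjusted p from 0.561 to 0.978). The labels do not say what a replicate number stands for, and IR29 control has no number 3. Without the first IR29 array, IR29 is represented by number 2 alone while Pokkali has numbers 1 to 3, and the PCL1 difference was then -2.62 (limma adjusted p = 0.69). The part of this in the counts without the first IR29 array was not tested by itself; with the number as a block and without that array, 1157 probe sets were higher and 1190 lower.

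Some large differences rested on the first IR29 array. BURP2, of the BURP domain family, was at 6.04, 5.75 and 6.23 in Pokkali, against 10.65 and 7.65 in IR29, a difference of -3.15 ± 0.70 that passed with both IR29 arrays (limma adjusted p = 0.0121) and not with the second alone (-1.65, limma adjusted p = 0.266). IR63731 averaged 11.23 for BURP2, close to the first IR29 array, and a second probe set of the gene gave -0.66 (limma adjusted p = 0.384). For the germin-like GLP2, at 6.87, 7.53 and 7.51 in Pokkali, against 9.45 and 9.09 in IR29, and the MADS-box gene MADS57, at 7.82, 7.65 and 7.51 in Pokkali, against 6.01 and 5.95 in IR29, by contrast, the 2 IR29 arrays were alike, and the log2 difference hardly moved without the first (-1.79 and 1.71) while the adjusted p did (0.169 and 0.0745, limma). In the other direction, some probe sets over 2-fold apart in the fit without the first IR29 array passed only there. IR63731 lay nearer Pokkali at most of them. Among those over 2-fold apart with both IR29 arrays, it lay nearer Pokkali at 154 of 597 higher and 246 of 617 lower. Passing only without the first IR29 array favours probe sets where that array lies toward Pokkali. The place of IR63731 at them thus follows in part from the choice.

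The genotype difference could be looked for again in salt-treated roots, whose 6 arrays share none with the control comparison. The tests in control and salt-treated roots came from the same fit, however, and used the same estimate of spread for each probe set. A probe set with a small estimate was thus favoured to pass in both, and the shares passing again are not an independent repeat. The log2 differences themselves are not computed from that estimate. Of the 2373 probe sets, 2315 had the same sign there (97.6%) and 1637 passed in the same direction (69.0%), where 6.34% of all probe sets passed between the salt-treated genotypes. Of the 1214 over 2-fold, 994 passed again (81.9%), and of the 71 over 16-fold, 69. Of the 1841 found without the first IR29 array, 1239 passed (67.3%). CASPL1D1 under salt was at 7.36, 6.67 and 7.34 in Pokkali, against 12.80, 12.54 and 12.71 in IR29, and its log2 difference of -5.57 in control roots stood beside -5.56 in salt-treated roots. HMA2 gave -3.93 in control and -3.35 in salt-treated roots, PP2C12 -4.08 and -3.91, ILL3 3.74 and 2.92, and SPO11-4 2.92 and 2.67. All 25 probe sets of this high-or-low pattern passed again in salt-treated roots.

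No probe set passed the test of whether the genotype difference itself differed between salt and control (0 of 57194, limma; 2481 at an unadjusted p under 0.05, or 4.34%). Without the first IR29 array 1 passed, OsAffx.24006.1.S1_at, whose 2 IR29 control arrays stood at 5.27 and 8.05. The widest gaps among the named probe sets were at LOC107277424, 7.42 in control roots and 3.52 in salt-treated roots (unadjusted p = 0.000126, limma adjusted p = 0.335), and at OsAffx.19068.1.S1_x_at, 6.05 and 2.13 (limma adjusted p = 0.21). For LOC107277424 the salt-treated roots were at 8.67, 5.14 and 7.48 in Pokkali, against 3.55, 3.50 and 3.68 in IR29: lower than control in Pokkali, and low in IR29 either way. CML32 (2.13 in control, 0.53 in salt-treated roots), ILL6 (1.65 and 0.37), BC1L9 (2.24 and -0.07) and NAC068 (1.58 and -0.15) passed in control roots and not under salt, and the change of their difference did not pass (limma adjusted p from 0.861 to 1.0). LOC4327401 was the single probe set to pass in opposite directions, at 1.25 in control and -1.40 in salt-treated roots.

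**Figure D4:**
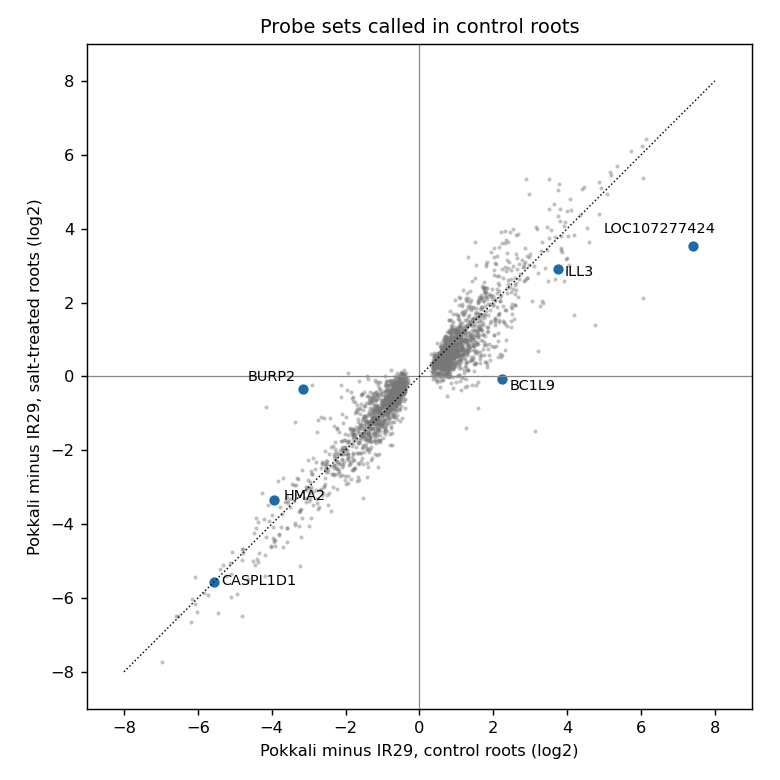
Pokkali minus IR29 (log2) in control roots (x axis) against the same difference in salt-treated roots (y axis) for the 2373 probe sets called in control roots; the dotted line marks equal differences. CASPL1D1 and HMA2 lie near the line, and LOC107277424 (7.42 and 3.52), BURP2 (-3.15 and -0.33) and BC1L9 (2.24 and -0.07) away from it.

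Genes that differed were spread over all 12 chromosomes, with unequal shares. From 4.97% of measured genes on chromosome 5 to 10.57% on chromosome 12 passed, and chromosome 11 had 8.87%. For differences over 2-fold the shares ran from 1.92% on chromosome 5 to 5.95% on chromosome 12, with 5.56% on chromosome 11. Chromosome 6 had 14 genes over 2-fold higher and 25 lower in Pokkali, and chromosome 1 had 57 higher and 32 lower. These shares are descriptions, since neighbouring genes are not independent.

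Of the 579 genes over 2-fold apart, 59 (10.2%) had a direct measured neighbour over 2-fold apart in the same direction, in 26 runs. The longest run was of 4 genes on chromosome 12, LOC4351890 (-3.97), LOC4351893 (-2.02), LOC4351897 (-2.22) and LOC9272184 (-2.36), all lower in Pokkali. A run of 3 on chromosome 3, LOC4331310 (3.82), LOC4331312 (2.58) and LOC4331313 (4.03), was higher throughout, and so was one on chromosome 5, LOC4337918 (1.5), LOC4337920 (3.44) and LOC4337921 (2.92). On chromosome 11, LOC4351029 (-4.20), LOC4351030 (-1.35) and LOC4351031 (-3.50) were lower together. The table used for names and order gives these genes no function.

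**Figure D5:**
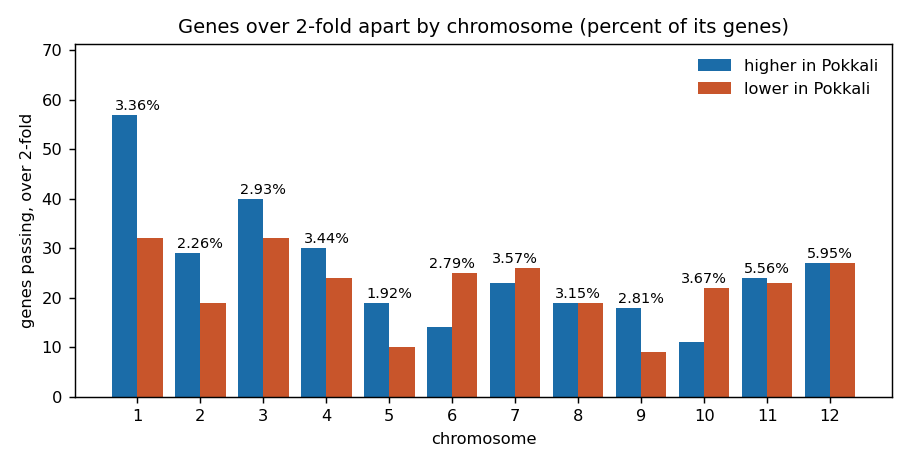
Number of genes over 2-fold higher (blue) or lower (red) in Pokkali control roots on each chromosome, with the percent of the chromosome's measured genes above the bars. Chromosomes 11 and 12 have the highest percentages, 5.56% and 5.95%.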

How the data were processed

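Root RNA was hybridised as biotin-labelled cRNA to Affymetrix rice arrays. Per the submitters' processing notes, RMA gave the deposited log2 values; the sources used here name no software version, probe set definition or genome build. Of 57381 probe sets, 123 AFFX and 64 RPTR controls were left out. The array annotation gave 1 gene for 22436 probe sets, several for 95 and none for 34663. All 17905 genes matched the RefSeq table (assembly ASM3414082v1), used for names and gene order. The brightest probe set on average stands for a gene. limma 3.58.1 (R 4.3.3) was fitted as 8 group means over 23 arrays, two-sided, with Benjamini-Hochberg adjustment over all rice probe sets and a threshold of 0.05. Fold changes are Pokkali over IR29, and errors are standard errors. Code was tested on simulated data.

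Named are the 14 largest differences each way among named genes passing with and without IR29 replicate 1 without overlap, the 5 largest each way over all probe sets, 3 each way per list, the 4 largest each way lost without that array, and 18 genes of salt biology or the clock, of which 15 were found. HMA5, CESA5, CESA6, CESA7, CASPL5B2, CBL10, BGLU3, LOC4327401, the window around HKT1;5 and the runs were chosen after their values were seen. The groups, lists and members were chosen with earlier results of these data known; lists were matched by symbol, and 24 matches that are aliases of other genes were left out with values known. IRT2, MTP1, CIPK26, CSLF6, CASPL2D1, 4CLL1, Dhn1, Pht1;4, WRKY76 and EIL1 were also chosen after their values were seen. The number of arrays limits precision.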

Additional observations from a re-analysis of the deposited data

How the results depend on the processing

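The alternatives were leaving out each of the 5 control arrays, leaving out 3 arrays that lie between genotypes, fitting only the 5 control arrays, the replicate number as a block with and without IR29 control replicate 1, array weights, robust eBayes with a trend, keeping the brighter probe sets by the median level, a second quantile normalization, and leaving out _s_at and _x_at probe sets. No named gene changed direction with a call under any of these. Of the 28 genes named by size, 18 passed under every alternative run for them. Leaving out a control array in turn gave 1064 to 2437 probe sets called (465 to 1275 higher, 599 to 1162 lower), 788 to 1298 over 2-fold, 841 to 1494 passing again under salt and 0 to 55 whose difference changed under salt. The 55 came without IR29 control replicate 2. Only the 5 control arrays gave 1311 calls, 607 higher and 704 lower; the fit then has fewer arrays behind its spread. Probe sets whose genotype difference changed under salt numbered 3 without the 3 arrays between genotypes, 1 with the block and IR29 control array 1 left out, and 10 with array weights, beside 0.

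The replicate block gave 3253 calls, 1619 higher and 1634 lower, with 2250 passing again under salt. Deviations of same-numbered Pokkali and IR29 control arrays correlated at 0.266 for number 1 and 0.392 for number 2, but Pokkali 3 and IR29 1 reached 0.211, and with 2 IR29 arrays the deviations of one mirror the other's. Only 2 numbers are shared and the labels tie nothing to them, so the samples share only a number. Of 98 named genes and probe sets that passed, 40 missed the threshold without IR29 control replicate 1, 50 without IR29 control replicate 2, 34 without Pokkali control replicate 3, 40 with only the 5 control arrays and 3 with the block.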
